A study of Mus musculus with 29 samples.

Results

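The keratin genes are described here across 29 microarrays of mouse distal colon. A gene was taken as a member when its symbol was Krt followed by a number, with at most 1 letter after it, and when at least 1 probe set was annotated to that gene alone. Of the 22180 genes with such a probe set, 53 met the rule, through 54 probe sets, and each gene was read from its probe set with the highest mean over all arrays. Krt18 had the additional probe set. Krt5 is not a member, since its only probe set is also annotated to Krt6a, and Krt85 was not analysed here.

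Keratins are the intermediate filament proteins of epithelial cells. A type I chain pairs with a type II chain, and the pairs in use mark the kind of epithelium: Krt8, Krt18, Krt19 and Krt20 form the filaments of the single-layered lining of the intestine, Krt5 and Krt14 those of the dividing basal layer of stratified epithelia, Krt4 and Krt13 those of the upper layers of non-cornified mucosae such as oesophagus, and Krt1 and Krt10 those of cornifying skin. Krt6a, Krt6b, Krt16 and Krt17 are known as keratins of activated keratinocytes, which rise in wounded or hyperproliferative skin, and a further set builds the hair shaft and its inner root sheath. The anal canal, beyond the distal colon and rectum, carries a stratified squamous epithelium.

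The study asked how loss of cytoglobin (Cygb), a globin of fibroblast-like cells, changes the colon before and after chemically induced chronic inflammation. All animals were female C57BL/6 mice of 18 to 24 weeks. Untreated WT (n = 8), untreated Cygb-/- (n = 8), AOM/DSS-treated WT (n = 8) and AOM/DSS-treated Cygb-/- (n = 5) mice each gave 1 array. Cygb-/- mice lacked the gene in every cell, from an allele targeted in embryonic stem cells of another strain, whose exon between loxP sites was removed in the germ line by Cre recombinase before backcrossing to C57BL/6J, and both genotypes were bred as homozygous lines from shared heterozygous ancestors. Treated mice received azoxymethane (AOM, a colon carcinogen, 7.4 mg/kg intraperitoneally) and 3% dextran sulfate sodium (DSS, which injures the colonic epithelium) in the drinking water for 7 days per cycle. The sample labels give 1 cycle and death in week 5, whereas the methods of the study give 2 cycles and death in week 7 for the animals used for arrays, so the length of treatment was not settled. The treated mice are called inflamed below.

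Values are RMA-normalised log2 intensities, so a difference of 1 is a 2-fold difference. The median over the 41345 probe sets of an array lay between 4.76 and 4.88 and the lower quartile between 3.26 and 3.37. No detection calls were at hand, so whether a keratin near the lower quartile was expressed was not determined. Probe sets differ in their response, so a difference between keratins within an array was not read as a difference in amount. Where keratins are contrasted below, the change of the contrast between arrays is described. Untreated WT replicates 5 and 6 stood apart from the other untreated arrays in several keratins, and results that rest on them are also given without them. In inflamed Cygb-/- replicate 3, Xist, which is transcribed from the inactive X chromosome of females, was at 3.82 against 10.64 to 11.15 in the other 28 arrays. The 3 measured genes of the Y chromosome were at most 2.44 in that array, within their range of 1.91 to 2.85. The cause of the low Xist value was not tested. In bulk tissue, more cells of a type and more RNA per cell cannot be told apart.

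Of the 4 simple keratins, Krt8 and Krt19 were the steadiest. Krt8, the type II chain of the simple epithelial filament, lay between 11.37 and 11.78 on all 29 arrays, a range that 97.4% of all probe sets exceeded. Krt19, a type I partner of Krt8, lay between 11.31 and 11.65, a range exceeded by 99.1%. Krt20, the type I keratin of differentiated surface enterocytes, spanned 10.83 to 11.76, and Krt18, the other partner of Krt8, 9.54 to 10.54, and 51.2% and 45.9% of probe sets ranged more widely than these. The lowest values of Krt8, Krt19 and Krt20 all came from the same array, inflamed WT replicate 5.

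**Figure D1:**
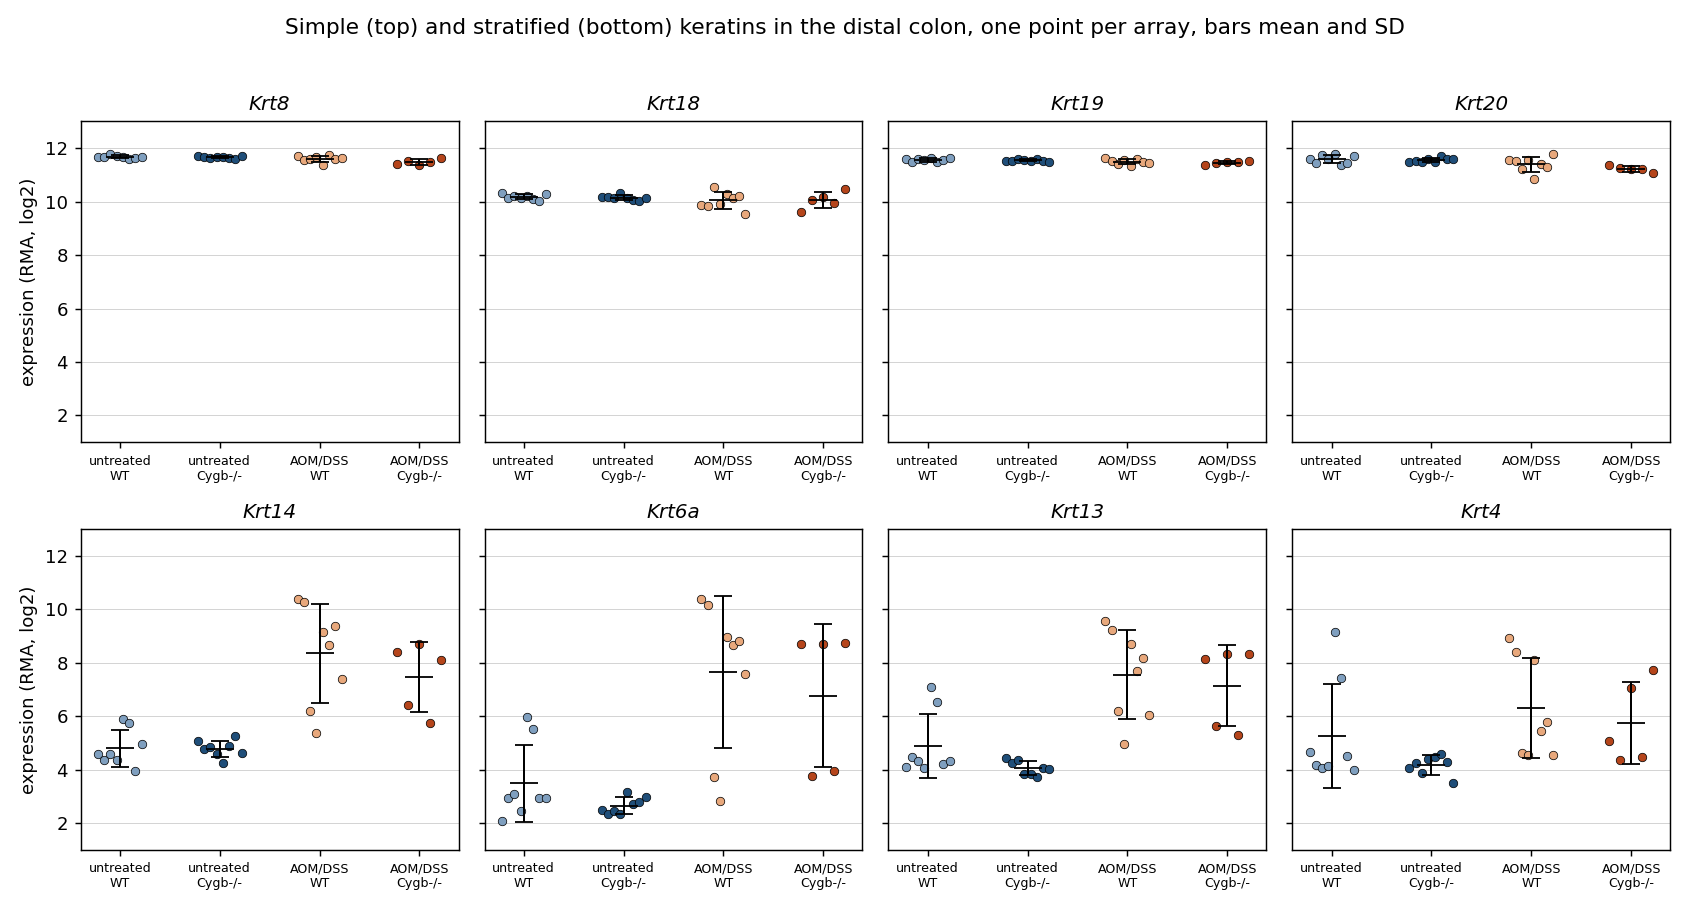
Expression (RMA, log2) of Krt8, Krt18, Krt19 and Krt20 (top) and Krt14, Krt6a, Krt13 and Krt4 (bottom) in the 4 groups, 1 point per array, with bars for the mean and SD. The simple keratins stay between 9.54 and 11.78 on every array, whereas Krt14, Krt6a, Krt13 and Krt4 spread over more than 5 log2 units.

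Krt20 fell in inflamed Cygb-/- colon. Its values in the 5 inflamed Cygb-/- arrays were 11.36, 11.24, 11.21, 11.20 and 11.05, against 11.48, 11.55 and 11.72 as the lowest, median and highest untreated Cygb-/- values. Every inflamed Cygb-/- array was below every untreated one. The log2 fold change was −0.35 (SE 0.07, adjusted p = 0.0011), a 1.27-fold difference. The call was kept when any 1 array was left out and lost when replicate numbers were taken as blocks. In WT, Krt20 spanned 10.83 to 11.76 in inflamed colon with a median of 11.45, and 11.38 to 11.76 in untreated colon with a median of 11.59. These groups overlapped, and the difference of −0.19 (SE 0.11) did not pass the test (adjusted p = 0.202). The interaction of genotype and treatment was called for none of the 4 simple keratins (lowest adjusted p = 0.765). On the arrays the fall of Krt20 was thus not shown to differ between the genotypes. All 5 inflamed Cygb-/- arrays lay below the inflamed WT median. None of the 4 simple keratins was called between the inflamed genotypes by limma (lowest adjusted p = 0.629). By RT-qPCR, another measure of RNA, the study reported a significant fall of Krt20 (Ck20) in inflamed Cygb-/- colon. It also reported a significant Ck20 difference between treated Cygb-/- and WT mice.

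Krt8 was also lower in inflamed Cygb-/- colon, by a smaller amount. The inflamed arrays read 11.39, 11.53, 11.37, 11.49 and 11.63 against 11.59 to 11.70 in untreated Cygb-/- colon (median 11.67), so that 1 of the 5 arrays lay within the untreated range. The difference of −0.17 (SE 0.06) passed the test narrowly (adjusted p = 0.037), and 12 alternative settings weakened it. The call was lost when arrays were centred on their medians or when any of 9 single arrays was left out. It was also lost when replicate numbers were taken as blocks. In WT the Krt8 difference was −0.06 (SE 0.06, adjusted p = 0.42). Neither Krt18 (−0.13, SE 0.11 in WT and −0.09, SE 0.11 in Cygb-/-) nor Krt19 (−0.06, SE 0.05 and −0.08, SE 0.05) passed the test in either genotype, although the inflamed arrays of Krt18 ranged more widely than the untreated ones, from 9.54 to 10.54 in WT against 10.04 to 10.32.

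Other genes of the colonic lining fell further than the simple keratins. Of 13 listed genes of colonocytes and intestinal epithelium, 10 fell in inflamed WT and 9 in inflamed Cygb-/- colon. Over all probe sets, 14.3% and 13.5% fell. The medians were −0.65 and −0.64, against −0.04 over all probe sets in both genotypes. Cdx2, the homeobox factor that sets intestinal identity, fell by 2.45 (SE 0.18, adjusted p = 4.53e-08) in WT and by 2.11 (SE 0.12, adjusted p = 3.58e-08) in Cygb-/- colon. Guca2a, which encodes the hormone guanylin of surface colonocytes, fell by 2.25 and 2.35. Of 7 goblet cell genes, 6 fell in WT and 5 in Cygb-/- colon and 1 rose in each, and Muc2, the main secreted mucin, fell by 0.47 and 0.49.

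Between the treatments, 17 of the 53 keratins changed in WT (12 higher, 5 lower) and 18 in Cygb-/- colon (12 higher, 6 lower), at an adjusted p under 0.05 over all probe sets. Over all probe sets, 26.7% were called in WT and 26.1% in Cygb-/- colon. In the upward direction alone the keratins stood at 12 of 53 in each genotype, beside a background of 12.5% in WT and 12.6% in Cygb-/- colon. Downward calls covered 5 and 6 keratins, beside 14.3% and 13.5%. The median keratin log2 fold change was −0.06 in WT and −0.09 in Cygb-/- colon, so the list as a whole was not shifted upward. The higher keratins belonged to the basal, activated, mucosal suprabasal, other simple, hair shaft, and cornea and other stratified classes in both genotypes. Both genotypes shared 9 higher keratins (Krt6a, Krt6b, Krt7, Krt13, Krt14, Krt23, Krt36, Krt84 and Krt90) and 2 lower ones (Krt81 and Krt222).

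**Figure D2:**
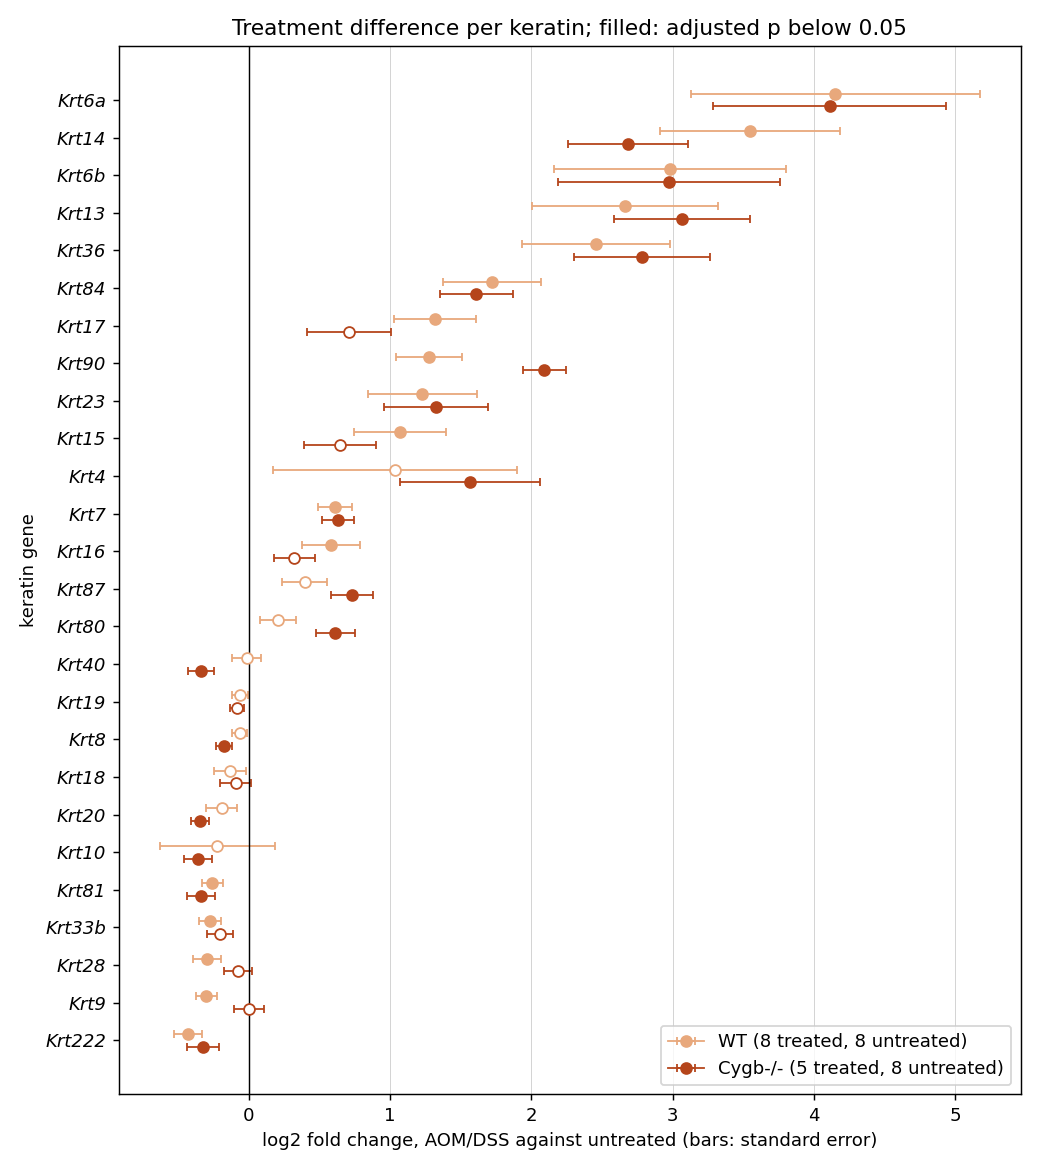
Log2 fold change of inflamed against untreated colon, with its standard error, for each keratin called in either genotype and for Krt18 and Krt19; filled points passed the test. Krt6a leads in both genotypes at 4.15 and 4.11, and no called fall goes beyond −0.43 (Krt222 in WT).

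Of the 2 basal layer keratins measured, Krt14 rose in both genotypes. Krt14 is the type I partner of Krt5 in dividing basal keratinocytes. Its values were 3.93, 4.58 and 5.89 (lowest, median, highest) in untreated WT and 5.36, 8.90 and 10.39 in inflamed WT colon. The inflamed Cygb-/- arrays read 8.40, 6.40, 8.68, 5.73 and 8.11, all above the untreated Cygb-/- range of 4.25 to 5.26. In WT only the lowest inflamed array, replicate 4, lay within the untreated range. The difference was 3.55 (SE 0.64, adjusted p = 0.00046) in WT, an 11.7-fold change, and 2.69 (SE 0.42, adjusted p = 0.000269) in Cygb-/- colon, a 6.44-fold change.

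Krt15, a keratin of basal and stem-like keratinocytes, spanned 3.11 to 4.28 in untreated and 3.37 to 6.06 in inflamed WT colon. It rose by 1.07 (SE 0.33, adjusted p = 0.0213), with the inflamed and untreated arrays overlapping. In Cygb-/- colon its difference of 0.65 (SE 0.26) did not pass the test (adjusted p = 0.081). The probe set annotated to both Krt5 and Krt6a was higher in inflamed colon as well, by 3.50 (SE 0.87, adjusted p = 0.00627) in WT and 2.84 (SE 0.75, adjusted p = 0.0119) in Cygb-/- colon, and how much of it came from Krt5 could not be told.

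Among the keratins of activated keratinocytes, all 4 passed the test in WT and 2 in Cygb-/- colon. In Cygb-/- colon all 4 differences were positive, from 0.32 to 4.11, each with an unadjusted p under 0.05 by limma. The interaction of genotype and treatment was called for none of the 4 (lowest adjusted p = 0.79). A difference between the genotypes was thus not shown. Krt6a had the widest range of any keratin, from 2.07 to 10.39, and only 0.01% of all probe sets had a wider one. Untreated WT arrays read 2.07, 2.94 and 5.98 (lowest, median, highest) and inflamed WT arrays 2.82, 8.73 and 10.39. In Cygb-/- mice the inflamed values were 8.69, 3.74, 8.71, 3.96 and 8.72, against 2.32 to 3.17 in untreated colon.

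All 5 inflamed Cygb-/- arrays thus lay above the untreated Cygb-/- range of Krt6a, but they fell into values near 4 and values near 9 with none between. The WT arrays did the same, with replicates 3 and 4 at 3.74 and 2.82 and the remaining 6 at 7.56 or above. The mean difference was 4.15 (SE 1.02, adjusted p = 0.00582) in WT and 4.11 (SE 0.83, adjusted p = 0.00179) in Cygb-/- colon, or 17.8-fold and 17.3-fold. Outside untreated WT replicates 5 and 6 (5.98 and 5.51) the untreated values, at most 3.17, lay below the lower quartile of the arrays, so these folds depend on the level that the array reports for a dim probe set.

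Krt6b spanned 3.09 to 5.59 in untreated and 3.32 to 9.55 in inflamed WT colon, with medians of 3.56 and 7.46. It rose by 2.98 in both genotypes, with SE 0.82 and adjusted p = 0.012 in WT, and SE 0.79 and adjusted p = 0.0115 in Cygb-/- colon. The test used 1 variance for both groups, whereas the Cygb-/- SD was 0.43 untreated and 2.50 inflamed. In Cygb-/- colon 1 alternative setting weakened this call. The inflamed Cygb-/- arrays held 8.48, 3.65, 8.36, 3.70 and 7.79, and replicates 2 and 4 lay within the untreated range of 2.76 to 4.04. Krt6a and Krt6b are near-identical copies, so signal may be shared between their probe sets. The same holds in part for Krt14, Krt16, Krt17 and Krt42.

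Krt17, which rises in injured skin, spanned 4.81 to 5.90 in untreated and 5.21 to 7.80 in inflamed WT colon, with 6 of 8 inflamed arrays more than 1 above the untreated median. It rose by 1.32 (SE 0.29, adjusted p = 0.0026). In Cygb-/- colon the inflamed arrays read 5.85, 5.44, 7.07, 4.92 and 6.66, and the difference of 0.71 (SE 0.29) did not pass the test (adjusted p = 0.097). Krt16 was dim, between 2.56 and 4.30 on all arrays. It rose by 0.58 (SE 0.21, adjusted p = 0.0451) in WT, where replicates 1 and 2 alone exceeded 4, and this call was lost when any of 12 single arrays was left out.

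Of the 4 mucosal suprabasal keratins, Krt13 rose in both genotypes. Krt13 is the type I partner of Krt4 in non-cornified stratified epithelia. Untreated WT values were 4.06, 4.32 and 7.07 (lowest, median, highest) and inflamed WT values 4.94, 7.93 and 9.54. The inflamed Cygb-/- arrays read 8.12, 5.64, 8.31, 5.31 and 8.32, all above the untreated Cygb-/- range of 3.73 to 4.45. In WT the overlap came from untreated replicates 5 and 6, at 7.07 and 6.53, since the other untreated arrays did not exceed 4.49. The difference was 2.67 (SE 0.66, adjusted p = 0.006) in WT and 3.07 (SE 0.48, adjusted p = 0.000254) in Cygb-/- colon.

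Krt4 showed the clearest dependence on single untreated arrays. In untreated WT colon its lowest, median and highest values were 3.99, 4.33 and 9.15, and in inflamed WT colon 4.54, 5.61 and 8.91. The highest Krt4 value of all 29 arrays was thus untreated WT replicate 5, with replicate 6 at 7.43. With all arrays the WT difference was 1.03 (SE 0.86, adjusted p = 0.407), whereas without replicates 5 and 6 it was 2.04 (SE 0.70, adjusted p = 0.0482). In Cygb-/- mice the inflamed arrays read 5.08, 4.37, 7.05, 4.48 and 7.71 against 3.49 to 4.57 in untreated colon. This difference of 1.57 (SE 0.50) passed the test (adjusted p = 0.0309) but was lost without untreated replicate 3 or 8 or without inflamed replicate 3 or 5. Of all alternatives run, 7 weakened this call. The other 2 mucosal keratins, Krt76 and Krt78, were called in neither genotype, and Krt78 stayed between 4.24 and 5.02.

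The epidermal suprabasal keratins did not rise with treatment. Krt10, the type I keratin of cornifying epidermis, spanned 4.93 to 6.70 in inflamed and 5.24 to 8.46 in untreated WT colon (difference −0.22, SE 0.41, adjusted p = 0.73). Without untreated WT replicates 5 and 6 the difference turned to 0.27 (SE 0.25, adjusted p = 0.478). In Cygb-/- colon the inflamed arrays read 5.02, 4.97, 4.90, 5.37 and 5.47 against 5.31 to 5.64, and the fall of 0.36 (SE 0.10, adjusted p = 0.0161) was lost without inflamed replicate 3. Krt1, the type II partner of Krt10, was called in neither genotype and stayed between 3.07 and 4.21 on every array but untreated WT replicate 5 (6.34). Krt9, the keratin of palm and sole epidermis, fell by 0.30 (SE 0.07, adjusted p = 0.00492) in WT and differed by 0.00 (SE 0.11) in Cygb-/- colon.

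A second group of keratins, outside the basal, activated and suprabasal classes, also rose. Krt7, a type II keratin of ductal and other simple epithelia, spanned 7.31 to 7.47 in untreated and 7.48 to 8.40 in inflamed WT colon, without overlap. In Cygb-/- mice the inflamed arrays read 7.53, 8.07, 8.24, 7.77 and 8.26, again all above the untreated range of 7.25 to 7.50. The differences were 0.61 (SE 0.12, adjusted p = 0.00101) and 0.63 (SE 0.11, adjusted p = 0.000716).

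Groups without overlap were otherwise few among the keratins. In WT these were Krt7 and Krt36, both higher, beside 4.05% of all probe sets, and no lower keratin, beside 4.45%. In Cygb-/- mice, where 5 inflamed arrays separate more easily than 8, they were Krt6a, Krt7, Krt13, Krt14, Krt84 and Krt90, all higher, beside 7.58%, and Krt20, lower, beside 7.42%.

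Krt36, a type I keratin of the hard, hair-type class that is known from nail and tongue papillae, rose more than any other keratin outside the squamous classes. Untreated WT arrays read 3.84, 4.66 and 4.90 (lowest, median, highest) and inflamed WT arrays 5.36, 6.60 and 9.36. Inflamed Cygb-/- arrays held 4.62, 8.29, 7.40, 6.84 and 8.28, of which replicate 1 alone lay within the untreated range of 3.97 to 4.84. The rise was 2.46 (SE 0.52, adjusted p = 0.00201) in WT and 2.78 (SE 0.48, adjusted p = 0.000535) in Cygb-/- colon, or 5.50-fold and 6.89-fold.

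Krt84, a type II hard keratin, was counted here in the cornea and other stratified class, not with the hair shaft keratins. It spanned 4.13 to 5.73 in untreated and 5.36 to 7.84 in inflamed WT colon. It rose by 1.72 (SE 0.35, adjusted p = 0.00126) in WT and 1.61 (SE 0.26, adjusted p = 0.000316) in Cygb-/- colon. Its inflamed Cygb-/- arrays read 6.17, 7.45, 6.09, 5.94 and 7.41, above the untreated range of 4.54 to 5.31. Krt23, a type I keratin known to be stress-inducible in liver, spanned 5.40 to 6.43 in untreated and 5.74 to 8.83 in inflamed WT colon. It rose by 1.23 (SE 0.39, adjusted p = 0.026) and 1.32 (SE 0.37, adjusted p = 0.0159), with 5.67, 7.85, 7.24, 6.11 and 8.44 in inflamed Cygb-/- colon. The Krt23 call was lost without inflamed WT replicate 5 or 7 in WT, and without inflamed replicate 2 in Cygb-/- mice.

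Krt90 had the smallest adjusted p of the keratins in Cygb-/- colon. Its values were 4.14, 4.26 and 5.00 (lowest, median, highest) in untreated WT and 4.87, 5.56 and 6.77 in inflamed WT colon. In Cygb-/- mice the inflamed arrays read 5.69, 6.38, 6.39, 6.58 and 6.63 against 3.83 to 4.48. The inflamed Cygb-/- arrays were close to each other, unlike those of Krt6a or Krt14. The rise was 1.27 (SE 0.24, adjusted p = 0.000604) in WT and 2.09 (SE 0.15, adjusted p = 3.81e-07) in Cygb-/- colon. The difference between these rises, 0.82 (SE 0.31), did not pass the interaction test over all probe sets (adjusted p = 0.43).

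Krt80, a type II keratin of many differentiated epithelia, and Krt87, of the hair-type class, rose in Cygb-/- colon by 0.61 (SE 0.14, adjusted p = 0.00426) and 0.73 (SE 0.15, adjusted p = 0.0021). The inflamed Cygb-/- arrays held 6.10, 5.62, 6.30, 5.68 and 5.28 for Krt80, against 4.98 to 5.31 untreated, and 4.59, 5.00, 5.13, 4.62 and 4.28 for Krt87, against 3.75 to 4.31. In each gene replicate 5 alone lay within the untreated range. In WT they differed by 0.21 (SE 0.13) and 0.40 (SE 0.16) without passing the test, but without untreated WT replicates 5 and 6 Krt87 rose there too, by 0.51 (SE 0.15, adjusted p = 0.0259). Neither interaction was called (adjusted p = 0.611 for Krt80 and 0.785 for Krt87).

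The promoters of some of these genes are shown for the comparison of simple, squamous and second-group keratins. RefSeq (GRCm38.p6) windows of 250 bases before to 50 after the annotated start were at hand for 35 of the 53 keratins, in 36 windows. The 80 bases just before the start are printed 5′ to 3′ on the gene's strand, with ATAAA within the last 50 bases in capitals.
Krt8 (chr15:102004343-102004422, minus strand): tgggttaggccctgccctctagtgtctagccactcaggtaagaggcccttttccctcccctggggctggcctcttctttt
Krt18 (chr15:102028136-102028215, plus strand): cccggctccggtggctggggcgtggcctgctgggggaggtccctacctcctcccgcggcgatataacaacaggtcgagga
Krt20 (chr11:99438154-99438233, minus strand): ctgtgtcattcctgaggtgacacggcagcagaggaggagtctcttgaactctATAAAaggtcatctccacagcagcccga
Krt7 (chr15:101412323-101412402, plus strand): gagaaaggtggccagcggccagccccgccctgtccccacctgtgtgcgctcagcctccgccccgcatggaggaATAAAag
Krt13 (chr11:100121567-100121646, minus strand): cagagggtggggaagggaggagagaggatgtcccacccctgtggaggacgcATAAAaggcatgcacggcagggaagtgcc
Krt10 (chr11:99389365-99389444, minus strand): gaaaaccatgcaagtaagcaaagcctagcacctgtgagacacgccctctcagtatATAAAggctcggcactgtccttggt
Krt23 (chr11:99493121-99493200, minus strand): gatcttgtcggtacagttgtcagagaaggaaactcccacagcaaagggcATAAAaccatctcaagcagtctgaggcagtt
Krt36 (chr11:100105627-100105706, minus strand): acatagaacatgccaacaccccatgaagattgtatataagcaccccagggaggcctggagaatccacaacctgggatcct
Krt84 (chr15:101532821-101532900, minus strand): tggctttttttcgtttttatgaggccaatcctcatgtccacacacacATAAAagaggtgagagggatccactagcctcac

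The letters ATAAA in those 50 bases, searched on the gene's strand after the sequences had been looked at, occurred in 22 of the 36 keratin windows (61.1%) and in 6.57% of all 32851 windows. Over the full 300 bases and both strands, TATAAA occurred in 19 keratin windows (52.8%, against 13.6% of all), the CDX-type letters TTTATNG in 15 (41.7%, against 10.9%) and the AP-1-type letters TGANTCA in 2 (5.56%, against 7.81%), both of Krt13. TTTATNG overlaps the TATA letters where it lies on the opposite strand, as in Krt20. ATAAA was present in Krt20, a simple keratin, in Krt13 and Krt84, which rose, and in Krt10, which did not, so the letters did not separate these patterns.

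Among the 13 inflamed arrays, the squamous and the second group peaked in different arrays, although some arrays were high or low in both. The squamous keratins Krt4, Krt6a, Krt6b, Krt13, Krt14, Krt15, Krt16 and Krt17, grouped after their values were seen, had their highest mean in inflamed WT replicates 1 and 2 (8.31 and 8.17) and their lowest in WT replicates 4 and 3 (4.06 and 4.74) and Cygb-/- replicates 4 and 2 (4.28 and 4.56). The mean of Krt7, Krt23, Krt36, Krt84 and Krt90, grouped in the same way, was highest in WT replicate 3 (8.24), WT replicate 5 (7.84) and Cygb-/- replicate 5 (7.80). It was lowest in WT replicate 1 (5.87), Cygb-/- replicate 1 (5.94) and WT replicate 4 (6.00).

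In single genes, WT replicates 1 and 3 were opposite. In WT replicate 1, Krt14 stood at 10.39 and Krt36 at 5.36, and in WT replicate 3 Krt14 stood at 6.19 and Krt36 at 9.36. WT replicates 5 and 7 were high in both genes, with 9.13 and 9.37 for Krt14 and 8.73 and 8.18 for Krt36. WT replicate 4 was low in both, at 5.36 and 5.73.

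**Figure D3:**
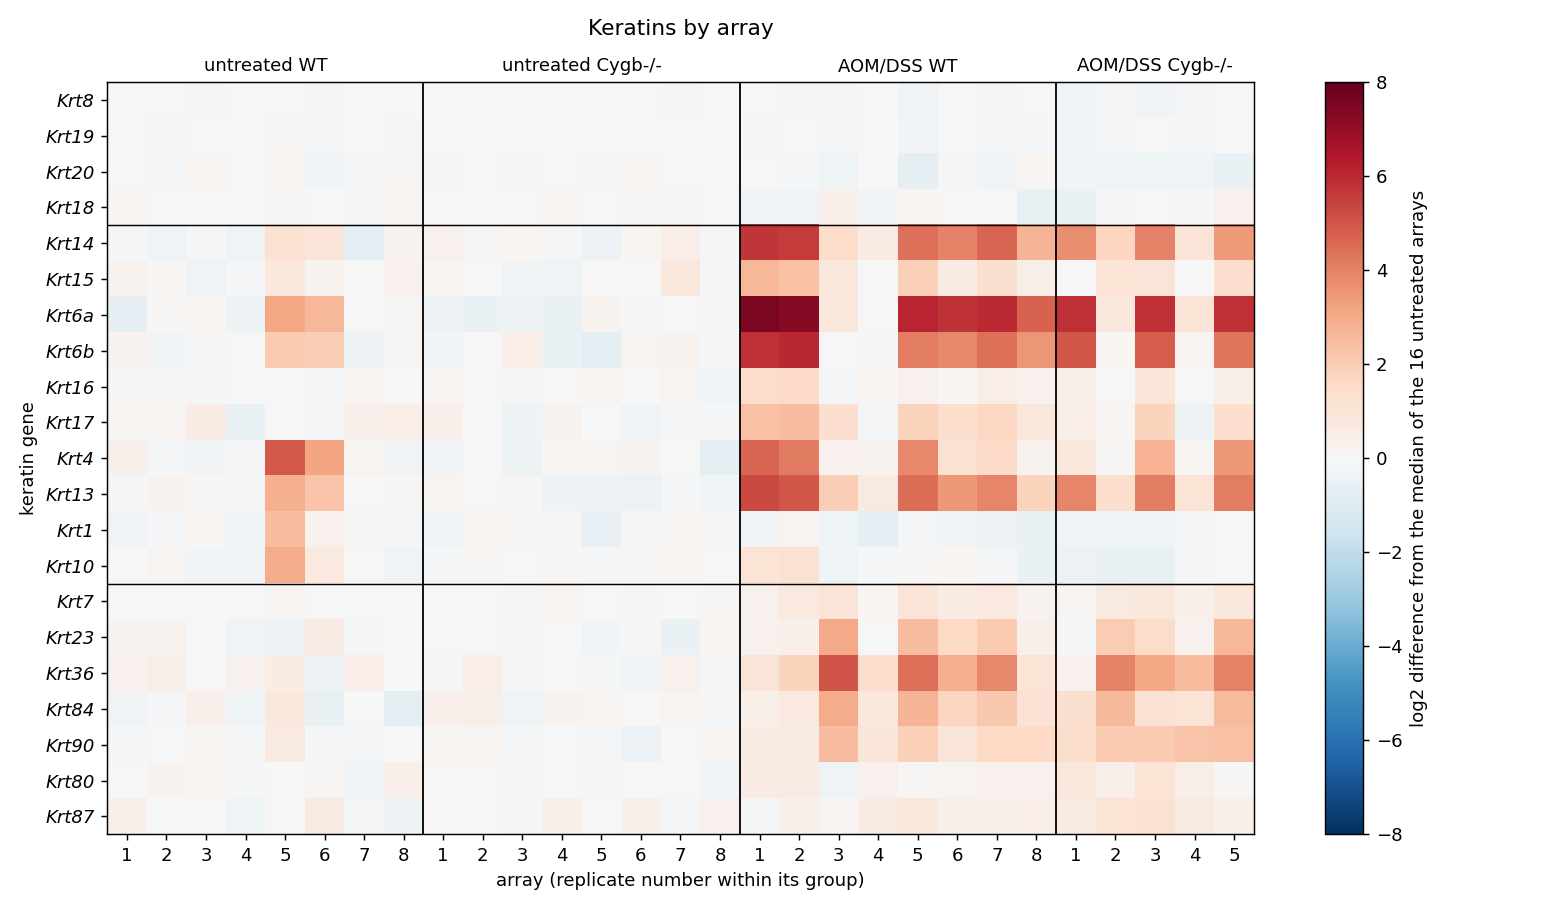
Log2 difference of each array from the median of the 16 untreated arrays for 21 keratins (rows), with arrays as columns in 4 groups; red is higher and blue lower. The top block of simple keratins is pale throughout, the middle block is darkest in inflamed WT replicates 1 and 2, and Krt36 in the bottom block is darkest in inflamed WT replicate 3.

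**Figure D4:**
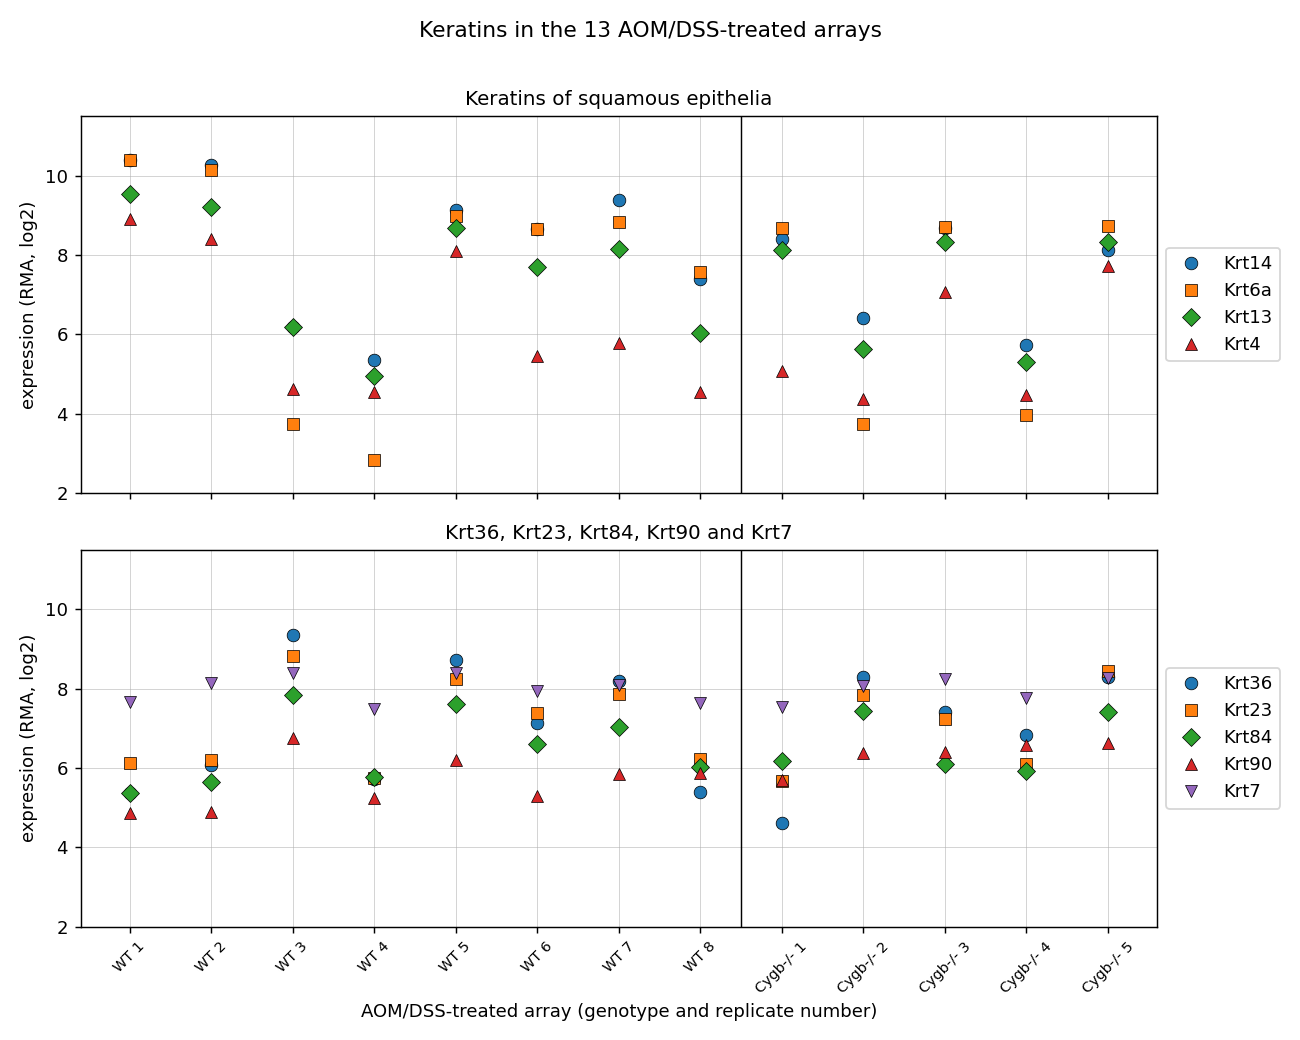
Expression (RMA, log2) in each of the 13 inflamed arrays, with Krt14, Krt6a, Krt13 and Krt4 above and Krt36, Krt23, Krt84, Krt90 and Krt7 below. WT replicates 1 and 2 lead the upper panel and WT replicate 3 the lower, where its Krt36 value is 9.36.

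The contrast of simple and stratified keratins moved with treatment and varied between animals. The mean of the 4 simple keratins less the mean of the 15 keratins of the basal, suprabasal and activated classes was 5.86, 7.22 and 7.38 (lowest, median, highest) in untreated WT and 6.96, 7.22 and 7.35 in untreated Cygb-/- colon. In inflamed WT colon it was 4.75, 5.73 and 7.14. Across the inflamed Cygb-/- arrays it was 5.66, 6.76, 5.45, 6.87 and 5.49. The mean of the simple keratins itself spanned 10.93 to 11.33 over all arrays, and that of the stratified keratins 3.85 to 6.44, so nearly all of this movement came from the latter.

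Untreated WT replicates 5 and 6 carried squamous keratins of another make-up than the inflamed arrays. In both arrays 8 keratins (Krt1, Krt4, Krt6a, Krt6b, Krt10, Krt13, Krt14 and Krt31) exceeded all other 14 untreated arrays, Krt31 narrowly (3.17 and 3.44 against at most 3.16). Krt4 read 9.15 and 7.43 there and at most 4.65 in the others, and Krt10 8.46 and 6.29 against at most 5.71. Krt4 and Krt10 in replicate 5 were higher than in any inflamed array, where the maxima were 8.91 and 6.70. Krt14, at 5.89 and 5.73, and Krt6a, at 5.98 and 5.51, lay well below the inflamed maxima of 10.39 for each.

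Of 35 genes of squamous epithelia other than keratins, 9 were above the other 14 untreated arrays in both replicates 5 and 6. A further 15 were so in replicate 5 alone, 1 in replicate 6 alone and 10 in neither. Against the inflamed arrays, 2 (Sprr3 and Tgm3) were above every one in both replicates, 10 in replicate 5 alone and 23 in neither. Tgm3 was not above all other untreated arrays in either replicate. The genes that follow were chosen after their values were seen. Flg (filaggrin, a cornified layer protein) was 6.14 in untreated WT replicate 5, 3.93 in replicate 6 and at most 4.03 on any inflamed array, and Rptn (repetin) 5.87 and 3.53 against at most 3.63. Sprr3, of the cornified envelope, was 5.46 and 4.62 in replicates 5 and 6 and at most 3.90 in inflamed colon. Cnfn (cornifelin) was 8.67 and 7.30, the former above and the latter below the inflamed maximum of 8.50. Trp63, the regulator of basal keratinocytes, was 4.03 and 3.71 in the 2 untreated arrays and up to 6.13 in inflamed colon, in WT replicate 2.

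**Figure D5:**
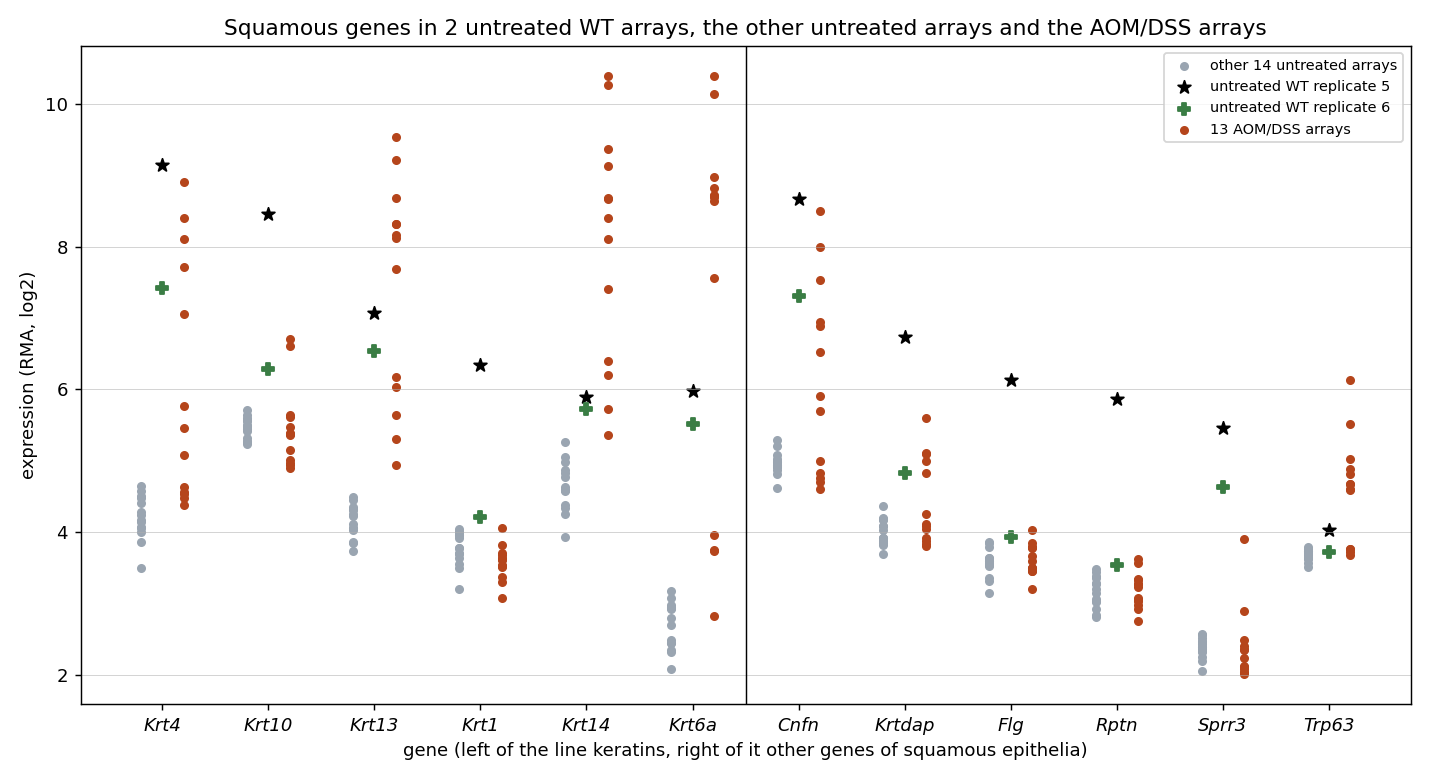
Expression (RMA, log2) of 6 keratins and 6 other genes of squamous epithelia in untreated WT replicates 5 and 6, the other 14 untreated arrays and the 13 inflamed arrays, 1 point per array. Krt4, Krt10, Krt1, Flg, Rptn and Sprr3 peak in untreated WT replicate 5, whereas Krt13, Krt14, Krt6a and Trp63 peak in inflamed arrays.

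Leaving out both arrays raised the WT treatment difference of Krt4, Krt6a, Krt6b, Krt13, Krt14 and Krt15 and lowered that of Krt16 (0.58 to 0.57) and Krt17 (1.32 to 1.24). Krt6a went from 4.15 to 4.91 (SE 1.06, adjusted p = 0.0036), Krt13 from 2.67 to 3.30 (SE 0.62, adjusted p = 0.0013) and Krt14 from 3.55 to 3.88 (SE 0.70, adjusted p = 0.0009). The total stayed at 17 keratins, with Krt4 and Krt87 gained and Krt16 (adjusted p = 0.101) and Krt23 (adjusted p = 0.0522) lost.

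Beyond the keratins, 35 of 36 listed genes of squamous epithelia were measured. Of these, 11 rose and 1 fell in inflamed WT colon, with a median of 0.16. In inflamed Cygb-/- colon 10 rose and 3 fell, with a median of 0.26. Over all probe sets, 12.5% rose and 14.3% fell in WT, and 12.6% and 13.5% in Cygb-/- colon. Called or not, 21 of the 35 differences were positive in WT and 28 in Cygb-/- colon. Ly6d, a surface protein of stratified epithelia, rose by 2.69 (SE 0.22, adjusted p = 1.4e-07) in WT and 2.70 (SE 0.23, adjusted p = 1.65e-06) in Cygb-/- colon. Tgm1, the transglutaminase that links the cornified envelope, rose by 1.97 in both, and Trim29, a keratinocyte gene, by 1.94 and 1.73. Tgm3, which the untreated colon held at a median of at least 11.9 in both genotypes, fell by 1.62 (SE 0.26, adjusted p = 0.000322) in Cygb-/- colon, so not every listed gene is particular to squamous cells. The list mean per array was 4.83 to 5.71 in untreated WT, 4.83 to 4.95 in untreated Cygb-/-, 4.93 to 6.09 in inflamed WT and 4.98 to 5.73 in inflamed Cygb-/- colon, and it was highest in WT replicates 2 and 1, the arrays highest in Krt14. The part of squamous tissue in the samples in these results was not tested.

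Some junction and regulator genes of stratified epithelia rose as well. Of 7 desmosome genes used mainly there, Dsg3, Dsc3 and Pkp1 rose in both genotypes, Dsg3 by 2.94 (SE 0.52, adjusted p = 0.000416) and 2.87 (SE 0.37, adjusted p = 4.81e-05). Of 6 desmosome genes of simple or all epithelia, 1 rose in WT (Pkp3, by 0.20, SE 0.07, adjusted p = 0.0466) and none passed in Cygb-/- colon. Among 9 measured regulators, 5 rose and 1 fell in WT and 6 rose and 1 fell in Cygb-/- colon. The shares over all probe sets given above stand beside each of these short lists. Grhl3, a factor of epidermal barrier formation, rose by 2.33 (SE 0.21, adjusted p = 3.25e-07) and 2.38 (SE 0.18, adjusted p = 4.96e-07) and lay above the untreated range on all 13 inflamed arrays. Trp63 rose by 1.08 (SE 0.27, adjusted p = 0.00669) in WT. Ovol1, which restrains keratinocyte proliferation, fell by 0.66 and 1.26.

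Lists of other tissues gave these values beside the keratins. Of all probe sets, 12.5% rose and 14.3% fell in WT, and 12.6% and 13.5% in Cygb-/- colon. The mean of 8 hair follicle genes was 3.83 to 4.31 in untreated and 3.94 to 4.25 in inflamed arrays, and 1 of them, Foxn1, rose, in WT (0.24, SE 0.08, adjusted p = 0.0336). Of 11 skeletal muscle genes, as of the anal sphincter, 1 fell in WT and in Cygb-/- colon 1 rose and 2 fell. None of 5 melanocyte genes rose, and Dct fell in WT. Of 6 mesothelial genes 3 rose in WT and 2 in Cygb-/- colon, with Msln up by 1.04 and 1.01. All 9 smooth muscle genes fell in both genotypes, and 10 of 11 neutrophil genes rose in both. Among 15 other intermediate filament genes 3 rose and 6 fell in each genotype, with vimentin (Vim) up by 0.77 and 0.89 and desmin (Des) down by 0.66 and 0.85 on the log2 scale.

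The keratins that fell did so by little. Krt222, a keratin-like gene, fell by 0.43 (SE 0.10, adjusted p = 0.0037) in WT, where it spanned 4.43 to 5.02 untreated and 4.07 to 4.63 inflamed, and by 0.32 (SE 0.11, adjusted p = 0.0494) in Cygb-/- colon, a call lost without any of 10 single arrays. Krt81, of the hair shaft, fell by 0.26 (SE 0.07) and 0.34 (SE 0.10), and in Cygb-/- mice not without inflamed replicate 2 or 3. Krt33b, of the hair shaft, and Krt28, of the inner root sheath, fell in WT by 0.27 (SE 0.08) and 0.30 (SE 0.10) and were not called in Cygb-/- colon, whereas Krt40, also of the hair shaft, fell in Cygb-/- colon by 0.34 (SE 0.09) and was not called in WT. The interaction was called for none of these 3 (adjusted p = 0.941, 0.757 and 0.546). All 5 lay at 5.92 or less on every array, with Krt81 (4.98 to 5.92) above the array medians throughout.

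No keratin was called between the genotypes in the tests run here. In untreated colon 0 of 53 were called by limma, beside 0.0218% of all probe sets, and 0 had an unadjusted p under 0.05. In inflamed colon 0 were called, beside 0.167%, and 5 had an unadjusted p under 0.05. The interaction of genotype and treatment gave 0 calls, beside 0.148%, with 4 at an unadjusted p under 0.05. A plain test limited to probe sets that differed by at least 1.5-fold was rebuilt from the methods, with equal and with unequal variances. It also gave 0 calls in both genotype comparisons. The study's own list, however, holds the probe set of Krt90, under another symbol, as higher in inflamed Cygb-/- than in inflamed WT colon. The rebuilt test did not reproduce that call, and which step differs was not settled. The largest untreated difference, Krt4 at −1.09 (SE 0.64, adjusted p = 0.796), became −0.08 (SE 0.16) without untreated WT replicates 5 and 6. In inflamed colon Krt14 differed by −0.88 (SE 0.85, adjusted p = 0.806), the largest keratin difference there. Krt90 was 0.71 higher in inflamed Cygb-/- than in inflamed WT colon (SE 0.30, adjusted p = 0.457). This was the keratin nearest to a call in the tests limited by fold, where its adjusted p was 0.0795 with equal and 0.0715 with unequal variances, and over all alternatives it ranged from 0.0715 to 0.614. The 27 type I keratins of chromosome 11, the chromosome that also carries Cygb, were among those without a call.

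The remaining keratins were of the hair shaft, inner root sheath, suprabasal and other stratified classes. In all, 19 genes fell outside the rule for named genes, Krt31 and Krt76 among them. They were called in no comparison, lay between 2.12 and 5.37 on every array, and their highest and lowest arrays differed by 0.54 to 1.5. Of those named through the mean level of their class, Krt25, Krt42, Krt73, Krt77, Krt83 and Krt88 were called in no comparison either. The 8 inner root sheath keratins had a class mean of 3.07 to 3.57 over all arrays. The 14 hair shaft keratins had a class mean of 4.28 to 4.69, with Krt36 and Krt87 as the members that rose.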

How the data were processed

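Total RNA of distal colon was hybridised to Affymetrix Mouse Gene 2.0 ST arrays. The authors deposited 1 table of log2 values made by RMA with the oligo package, and 0 value columns were left out. The version of RMA and the genome build are not given in the sources used here. Of the 41345 probe sets, 23521 carry 1 gene, 1820 several and 16004 none in GEO's platform annotation. No further normalization was applied. Pairs of groups were compared by two-sided tests of moderated linear models (limma 3.58.1, run under R 4.3.3), with p-values adjusted over all probe sets by the Benjamini-Hochberg method and a threshold of 0.05; the interaction came from a fit to all 4 groups. The fits were tested on simulated data. Each fit shared 1 variance between its groups, so its SE and p-value do not follow a wider spread in 1 group. In Cygb-/- colon the SD was 1.54 inflamed and 0.36 untreated in Krt4, and 1.16 and 0.23 in Krt23. Within a group, arrays correlated at 0.974 to 0.990 (Pearson, over probe sets). Replicate numbers did not pair samples. The labels call the arrays biological replicates, and their number limits the precision. Members, classes and gene lists were chosen with earlier results of these data known. Named keratins were Krt8, Krt18, Krt19 and Krt20, the up to 3 members of each other class with the highest mean, every called keratin and every keratin ranging over 2 or more log2 units; from the other lists, up to 4 members with the smallest p, and others only where arrays are described, chosen after their values were seen. Alternatives covered normalization, filtering, probe set choice, array weights, a shared fit, the methods' t-test, replicate blocks and left-out arrays; leaving out untreated WT replicates 5 and 6 and the unequal variances of that test were chosen after seeing the data.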

Additional observations from a re-analysis of the deposited data

Results flagged for a closer look

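In 136 groups of arrays (34 named keratins in 4 groups), 8 single arrays lay far from the rest of their group by Dixon's criterion, which chance exceeds in about 1 group of 20. Untreated WT replicate 5 accounted for 4 of them: Krt1 was 6.34 there with the next array at 4.21, Krt10 8.46 with the next at 6.29, Krt90 5.00 with the next at 4.46, and Krt7 7.47 with the next at 7.37. Untreated WT replicate 1 was low in Krt40, at 4.02 with the next array at 4.63. Untreated Cygb-/- replicate 7 was high in Krt15, at 4.34 with the next at 3.60. Among inflamed Cygb-/- arrays, replicate 1 was low in Krt90, at 5.69 with the next at 6.38, and replicate 4 was high in Krt83, at 5.20 with the next at 4.79.

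The probe set annotated to both Krt5 and Krt6a, which belongs to no member, averaged 8.72 in inflamed and 5.22 in untreated WT colon.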

How the results depend on the processing

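The count of keratins that changed in WT went from 17 to 11, all higher, with the methods' t-test, which only considers probe sets with a difference of at least 1.5-fold, whether with equal or with unequal variances; the limma count ranged from 15 to 18 when 1 array was left out. In Cygb-/- colon the count went from 18 to 13, all higher, with that t-test at equal variances, and to 9, all higher, at unequal variances. None of the 6 lower keratins there fell by 1.5-fold, so that t-test could not call them. With a replicate block the count was 9, all higher, although the shared replicate numbers do not pair samples. Same-numbered arrays deviated together with a mean correlation of −0.0218 in Cygb-/- and −0.0076 in WT mice. In the genotype comparisons it was −0.0519 untreated and 0.076 inflamed. The block gave 16 keratins in WT, and the cause of the counts of 9 in Cygb-/- colon was not tested. Leaving out 1 array gave 14 to 19 keratins there. The counts of 0 in the genotype comparisons and the interaction stayed at 0 under every alternative run. Of 35 called differences of single keratins, 26 kept their call without any 1 array and 9 lost it without at least 1; Krt28 in WT was lost without untreated replicates 2, 5 or 8 or inflamed replicates 2 or 4. The uncalled Krt18 difference in Cygb-/- colon of −0.09 ranged from −0.194 to 0.0154 when 1 array was left out, and turned positive without inflamed replicate 1.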
